A study of Mus musculus with 14 samples.

Results

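SR proteins and heterogeneous nuclear ribonucleoproteins (hnRNPs) are the main families of proteins that decide which splice sites of a pre-mRNA are used. Their genes were followed here in microglia (resident immune cells of the nervous system) sorted from mouse retina. The members were every row of the deposited gene table whose symbol starts with Srsf or Hnrnp, leaving out the 3 rows of processed pseudogenes with -ps in the symbol. This gave 31 genes of 35735 rows, 11 of them Srsf and 20 Hnrnp. Mice had the genotypes labelled APOE E3/E3 or APOE E4/E4, were 12 weeks old, and received either a sham injection or microbeads, which obstruct fluid outflow from the eye and serve as a glaucoma model. The 14 libraries, each labelled as 1 retina, formed 4 groups: APOE3 sham (n = 4), APOE3 microbead (n = 3), APOE4 sham (n = 4) and APOE4 microbead (n = 3). The sort kept Fcrls+ CD11b+ cells without Ly6c, 100 to 600 per retina, of which 100 to 300 entered lysis. The labels do not say how the APOE alleles were made or whether retinas came from separate animals, so p-values measure only the spread between these samples, which may be technical.

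SR proteins carry RNA recognition motifs and a tail of arginine and serine repeats. They bind enhancer sequences in exons and recruit the spliceosome, and kinases of the Clk and Srpk families control them by phosphorylating that tail. hnRNPs coat nascent transcripts, and many of them bind silencer sequences and counteract exon inclusion. Both families are known to limit their own amounts: at high protein levels their transcripts are spliced to include a poison exon or to retain an intron, which places a stop codon early and exposes the transcript to nonsense-mediated decay (NMD), the pathway that destroys messages with premature stops.

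Transcripts annotated as retained intron or NMD took a large part of the reads of SR genes in these microglia. Whether they arose from such self-limitation was not tested. The inserted sequence is shown for 4 of them. Each line gives the last 30 bases of the coding exon before the insert, in GRCm38 and in the sense of the gene, followed by the inserted bases up to the first stop codon in frame, which is in capitals. The sequences are from the GENCODE M21 transcripts.
Srsf3 NMD transcript: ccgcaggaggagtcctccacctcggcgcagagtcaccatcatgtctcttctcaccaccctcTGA
Srsf6 NMD transcript: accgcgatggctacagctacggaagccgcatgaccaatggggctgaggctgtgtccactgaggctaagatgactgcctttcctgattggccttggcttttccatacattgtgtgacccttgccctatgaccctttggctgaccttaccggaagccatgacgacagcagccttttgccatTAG
Srsf7 NMD transcript: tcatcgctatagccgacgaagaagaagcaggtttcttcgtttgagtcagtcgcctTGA
Srsf5 retained-intron transcript: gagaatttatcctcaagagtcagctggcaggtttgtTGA
The Srsf3, Srsf6 and Srsf7 transcripts are annotated as NMD targets. In Srsf3 an exon of 456 bases at chr17:29039454-29039909, plus strand, stops the frame after 124 codons, where the coding transcript has 164. In Srsf6 an exon of 268 bases at chr2:162932815-162933082, plus strand, stops it after 135 of 339 codons. In Srsf7 an insert of 460 bases at chr17:80204622-80205081, minus strand, stops it after 137 of 238 codons. The Srsf5 transcript keeps an intron of 1229 bases at chr12:80947866-80949094, plus strand, and read in the frame of the coding transcript it stops after 124 of 269 codons.

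Libraries held 451287 to 727726 estimated reads, of which 38.5% to 65.3% lay on 12 genes at satellite repeats, leaving 226374 to 447190 outside them. The lowest satellite shares belonged to APOE3 sham 4 and APOE3 microbead 2, at 39.1% and 38.5%. The mouse Apoe transcript had 5 to 27 reads per group, too few to check the genotype labels. The microglial markers P2ry12 and Tmem119 and the sorting antigens Fcrls and Itgam were present in every group. 10 marker genes of microglia summed to between 12854 and 17980 CPM (reads scaled by TMM to a common library size) in 11 libraries, and to 5893, 9307 and 10400 CPM in APOE3 microbead 1, 2 and 3. 15 marker genes of monocytes summed to between 251 and 407 CPM in the 8 sham libraries, to 551, 1420 and 458 CPM in the APOE4 microbead libraries, and to 5762, 7118 and 1389 CPM in the APOE3 microbead libraries. All 15 were above 0 in APOE3 microbead 1 and 2, against 7 to 13 of 15 in a sham library. In APOE3 microbead 3 there were 12, and in APOE4 microbead 1, 2 and 3 there were 9, 14 and 14. Ly6c2, which encodes the antigen sorted against, had 4.02 reads over the APOE3 microbead group. 14 marker genes of rod photoreceptors summed to 181 to 2202 CPM across the libraries. The microglial and monocyte sums move with the comparisons that involve the APOE3 microbead group. The monocyte sums also separate APOE4 microbead from APOE4 sham, while the rod sums overlapped between groups. The part of these sums in the results below was not tested. In sorted bulk RNA, fewer cells of a type and less RNA per cell cannot be told apart.

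The 31 genes took 16854 estimated reads in all, 851 to 2021 per library. 27 of them passed the filter on low counts, 10 SR genes and 17 hnRNP genes, with a median of 32.9 reads per gene and library. The others were Hnrnpll, Hnrnpa0, Hnrnpul2 and Srsf12. Hnrnpll, Hnrnpa0 and Hnrnpul2 had 61.2, 42 and 77.8 reads over all libraries, and Srsf12 had 1 read, in APOE3 sham 1.

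Levels between genes are compared in the deposited TPM, which divides reads by transcript length. Hnrnpk, whose KH domains bind C-rich RNA, was highest with a median of 56.9 TPM over the 14 libraries (range 39.2 to 115). Hnrnpa2b1, which binds UAG motifs and also sorts RNAs into transport granules, had a median of 50.5 TPM (24.3 to 121). Srsf5 followed at 43.4 TPM (19.4 to 111) and was the highest SR gene. Hnrnph1, which binds runs of G, had 39.0 TPM (19.96 to 87.2), and Srsf2, a component and classical marker of nuclear speckles, 32.8 TPM (23.9 to 77.7). The ranges of these 5 genes overlapped, so their order is not separated from the spread between libraries. Next came Srsf11, Hnrnpf, Srsf3 and Hnrnpa1, between 25.6 and 19.6 TPM. At the low end of the tested genes stood Srsf1, the prototype SR protein, with a median of 1.90 TPM (0.629 to 5.78), below the range of each of the 9 highest genes. The median over SR genes was 9.67 TPM and over hnRNP genes 8.24 TPM.

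**Figure D1:**
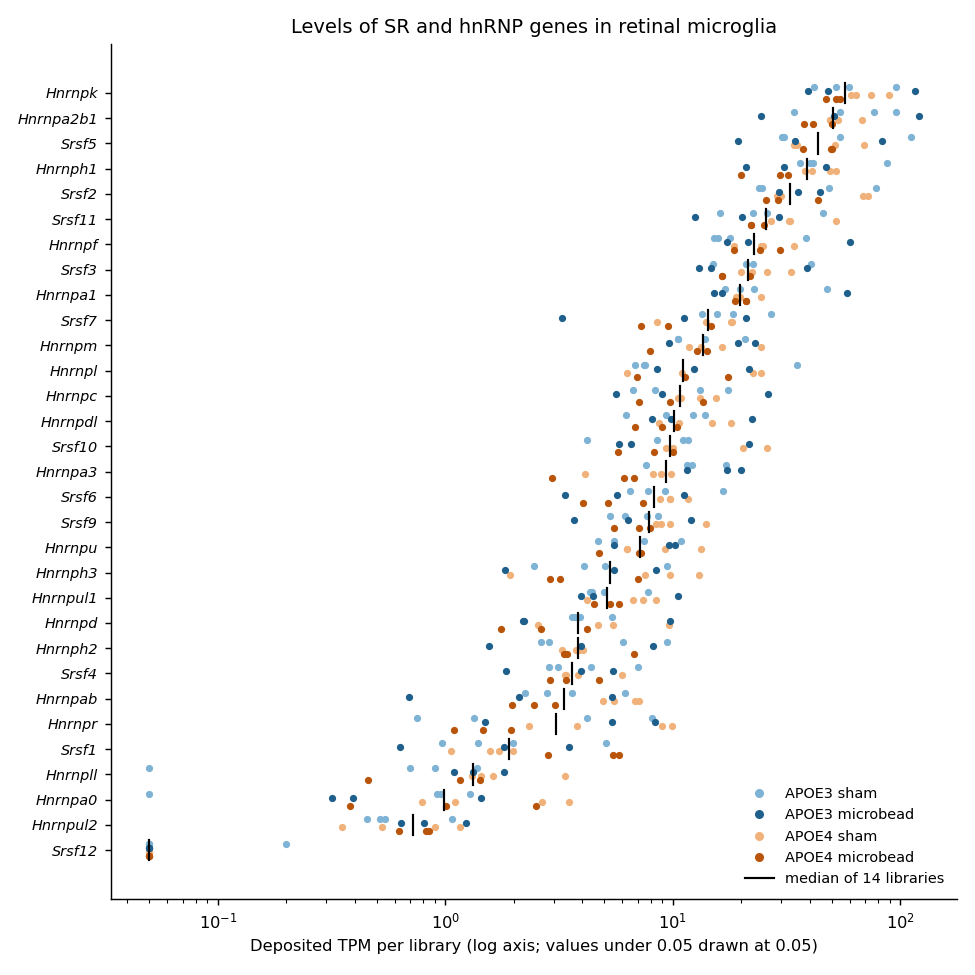
Deposited TPM of each of the 31 genes in each of the 14 libraries (log axis, points coloured by group, vertical bar at the median), sorted by median; values under 0.05 are drawn at 0.05. The medians run from 56.9 TPM for Hnrnpk to 0 for Srsf12, and for most genes the range over libraries is wider than the step to the next gene.

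Summed over the family, the SR genes took 834 ± 39.6 CPM in APOE3 sham (SD, n = 4), 669 ± 86.1 in APOE3 microbead (n = 3), 756 ± 67.0 in APOE4 sham (n = 4) and 770.4 ± 44.5 in APOE4 microbead (n = 3). The 3 APOE3 microbead libraries, at 581, 753 and 671 CPM, lay below the 4 APOE3 sham libraries, which lay between 790.0 and 882 CPM. In APOE4 the sums overlapped, with 733 to 819 CPM after microbeads and 710.4 to 855 after sham. The hnRNP genes summed to 1258 ± 24.5, 1323 ± 179, 1239.6 ± 70.5 and 1181 ± 19.2 CPM in the same order of groups, with overlap in APOE3 and in APOE4.

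Within APOE3, microbead libraries were set against sham libraries to ask how the glaucoma model moved these genes in that genotype. None of the 27 genes was called, a call being an adjusted p under 0.05 in edgeR's quasi-likelihood test over all 7609 genes tested, while 5.2% of all genes were. At an unadjusted p under 0.05 there were 5 members (18.5% of 27), against 14.7% of all genes. DESeq2 and limma-voom also called 0 members. The libraries of the 2 groups did not overlap for the same number of members, 5 of 27 (18.5%), where 13.1% of all genes did not overlap. By family, 9 of 10 SR genes had a negative fold change, with a median of -0.24 on the log2 scale, and 8 of 17 hnRNP genes, with a median of 0.03; over all genes 51.5% were negative and the median was -0.02. The SR count was 9 of 10 also with library totals and with log2(TPM + 1), and 7 of 10 without APOE3 microbead 1 or without APOE3 sham 1. Without APOE3 microbead 2 the medians of the families came together, at -0.20 for SR (10 of 10 negative) and -0.19 for hnRNP genes (10 of 17). Without APOE3 microbead 1 and 2, which leaves 1 library in that group, they changed order, at -0.19 for SR (8 of 10) and -0.31 for hnRNP genes (12 of 18). None of these counts is a test, since the genes of a family are not replicates.

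Srsf7, an SR protein with a zinc knuckle that also links splicing to mRNA export (ENSMUSG00000024097, chromosome 17, 80200080 to 80207307), was at 72.1, 80.8, 81.3 and 66.0 CPM in APOE3 sham and at 18.1, 62.3 and 47.9 CPM in APOE3 microbead. All microbead libraries were below all sham libraries, and APOE3 microbead 1 was far below the other two. The log2 fold change was -0.74 ± 0.29 (SE, adjusted p = 0.185 by edgeR's quasi-likelihood test), without APOE3 microbead 1 it was -0.42 (adjusted p = 0.577), and without APOE3 microbead 2 it was -1.13 (adjusted p = 0.0695). Srsf6, known for binding purine-rich exonic enhancers (chromosome 2, 162931528 to 162937121), was at 72.1, 70.2, 54.8 and 67.2 CPM against 38.4, 47.8 and 37.3 CPM. These groups also stood apart, with a log2 fold change of -0.67 ± 0.28 (edgeR adjusted p = 0.213). Of the remaining SR genes, Srsf5, Srsf2, Srsf3, Srsf4, Srsf11, Srsf1 and Srsf9 had log2 fold changes between -0.31 and -0.07 with overlapping libraries, and Srsf10 had 0.08. Srsf2, the second highest SR gene by mean TPM, was at 79.0, 140.4, 111.7 and 141.5 CPM against 94.98, 84.6 and 110.1 CPM, a log2 fold change of -0.30 ± 0.25 (edgeR adjusted p = 0.676). In APOE4 it was at 87.9, 86.1, 140.5 and 88.6 CPM after sham and 127.2, 112.9 and 76.0 CPM after microbeads, again overlapping.

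Hnrnpa3, of the A/B group of hnRNPs (ENSMUSG00000059005, chromosome 2, 75659261 to 75669407), was at 46.4, 63.2, 56.9 and 60.0 CPM in APOE3 sham and at 128.9, 80.1 and 76.4 CPM in APOE3 microbead. Every microbead library was above every sham library, with APOE3 microbead 1 the highest. The log2 fold change was 0.73 ± 0.27 (edgeR adjusted p = 0.137), 0.47 without APOE3 microbead 1 (adjusted p = 0.543), 0.44 without APOE3 microbead 1 and 2 (1 library left in the group, so no p is given), and 0.42 with offsets for transcript length (adjusted p = 0.714). Hnrnpm, which binds GU-rich RNA (chromosome 17, 33646233 to 33686860), was at 63.6, 57.9, 73.1 and 51.6 CPM against 94.98, 91.2 and 83.5 CPM. It also separated the groups, with a log2 fold change of 0.55 ± 0.24 (edgeR adjusted p = 0.230), or 0.27 with offsets for transcript length (adjusted p = 0.832). Hnrnph1 (chromosome 11, 50376990 to 50386528) went the other way, from 99.6, 107.1, 128.0 and 128.3 CPM to 81.4, 79.0 and 85.2 CPM, again without overlap (log2 fold change -0.50 ± 0.21, edgeR adjusted p = 0.236). The 2 most abundant members, Hnrnpk and Hnrnpa2b1, had log2 fold changes of -0.10 ± 0.21 and -0.00 ± 0.21. Hnrnpk was at 238.8, 180.8, 237.7 and 229.1 CPM against 174.1, 258.2 and 186.5 CPM, and Hnrnpa2b1 at 125.4, 149.2, 156.4 and 130.7 CPM against 122.1, 171.4 and 122.5 CPM. For both genes the groups overlapped.

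**Figure D2:**
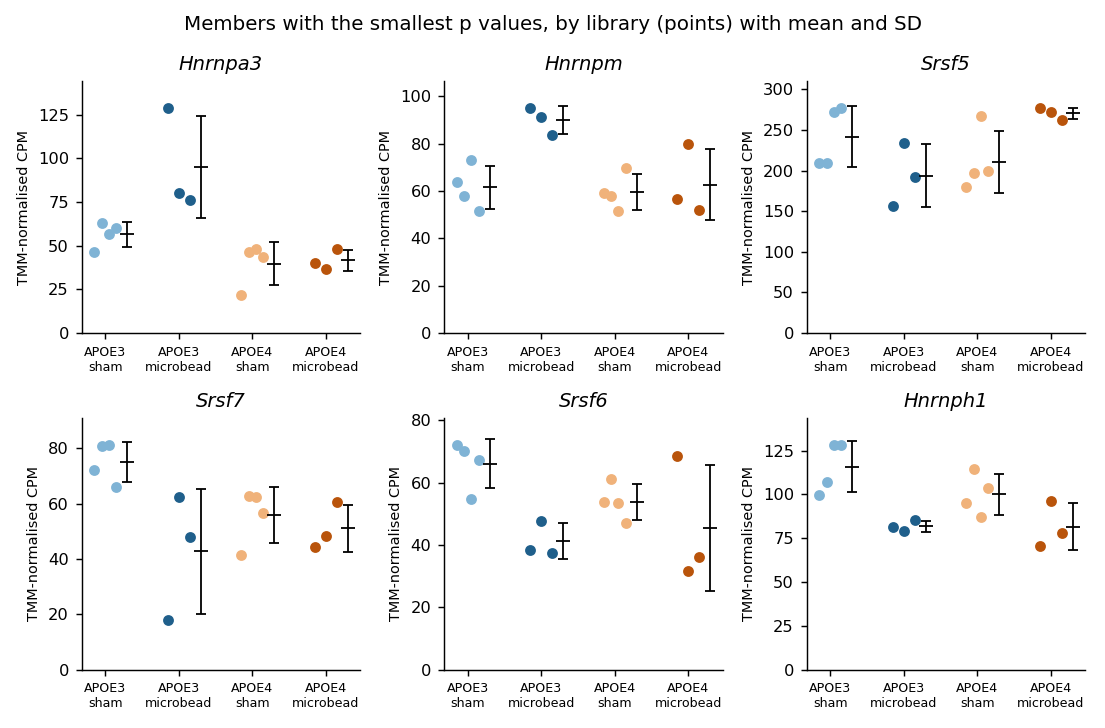
TMM-normalised CPM by library (points), with mean and SD beside, for 6 of the members described here. Hnrnpa3 and Hnrnpm have their highest group means in APOE3 microbead, at 76.4 to 128.9 and 83.5 to 94.98 CPM, and Srsf7, Srsf6 and Hnrnph1 are lower there than in APOE3 sham with no overlap.

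In APOE4 retinas the same comparison called none of the 27 members, against 0.223% of all genes. 1 member had an unadjusted p under 0.05, against 6.49% of all genes, and 4 of 27 (14.8%) did not overlap between groups, against 9.03% of all genes. Hnrnpab, an A/B-type hnRNP (ENSMUSG00000020358, chromosome 11, 51600100 to 51606847), was at 34.1, 28.1, 30.2 and 26.4 CPM in APOE4 sham and at 14.1, 18.3 and 13.8 CPM in APOE4 microbead. The microbead libraries were all lower, with a log2 fold change of -0.93 ± 0.39 (edgeR adjusted p = 0.632). Hnrnpr, a relative of Syncrip (chromosome 4, 136310942 to 136359447), was at 89.7, 86.1, 88.9 and 124.5 CPM against 58.5, 84.7 and 57.0 CPM, without overlap (-0.54 ± 0.26, edgeR adjusted p = 0.763), and with offsets for transcript length the value was -1.54 (adjusted p = 0.685). Hnrnpd, also known as AUF1, which binds AU-rich elements of short-lived mRNAs, was at 17.9, 18.2, 16.0 and 15.1 CPM against 12.1, 6.64 and 10.4 CPM. These groups were apart at few reads per library (-0.79 ± 0.50, edgeR adjusted p = 0.876). The most abundant hnRNP genes overlapped between the groups: Hnrnpk was at 220.7, 185.4, 261.4 and 160.3 CPM against 211.9, 189.3 and 191.8 CPM. Hnrnpa2b1 was at 145.3, 107.6, 163.6 and 120.7 CPM against 129.2, 126.2 and 136.5 CPM. Hnrnph1, at 95.1, 114.2, 87.1 and 103.7 CPM against 70.6, 96.3 and 77.8 CPM, overlapped in APOE4 where it had not in APOE3.

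Srsf5, whose transcripts hold more reads than those of any other member (ENSMUSG00000021134, chromosome 12, 80945504 to 80950507), was at 179.4, 197.0, 266.8 and 199.9 CPM in APOE4 sham and at 276.5, 272.4 and 262.7 CPM in APOE4 microbead. 1 sham library lay inside the microbead range, and the log2 fold change was 0.36 ± 0.20 (edgeR adjusted p = 0.841). It was 0.11 with library totals and -0.010 with log2(TPM + 1). In APOE3 it was at 209.6, 208.9, 272.2 and 277.1 CPM after sham and 156.0, 233.7 and 191.8 CPM after microbeads, overlapping, with a log2 fold change of -0.31 ± 0.20 (edgeR adjusted p = 0.545).

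**Figure D3:**
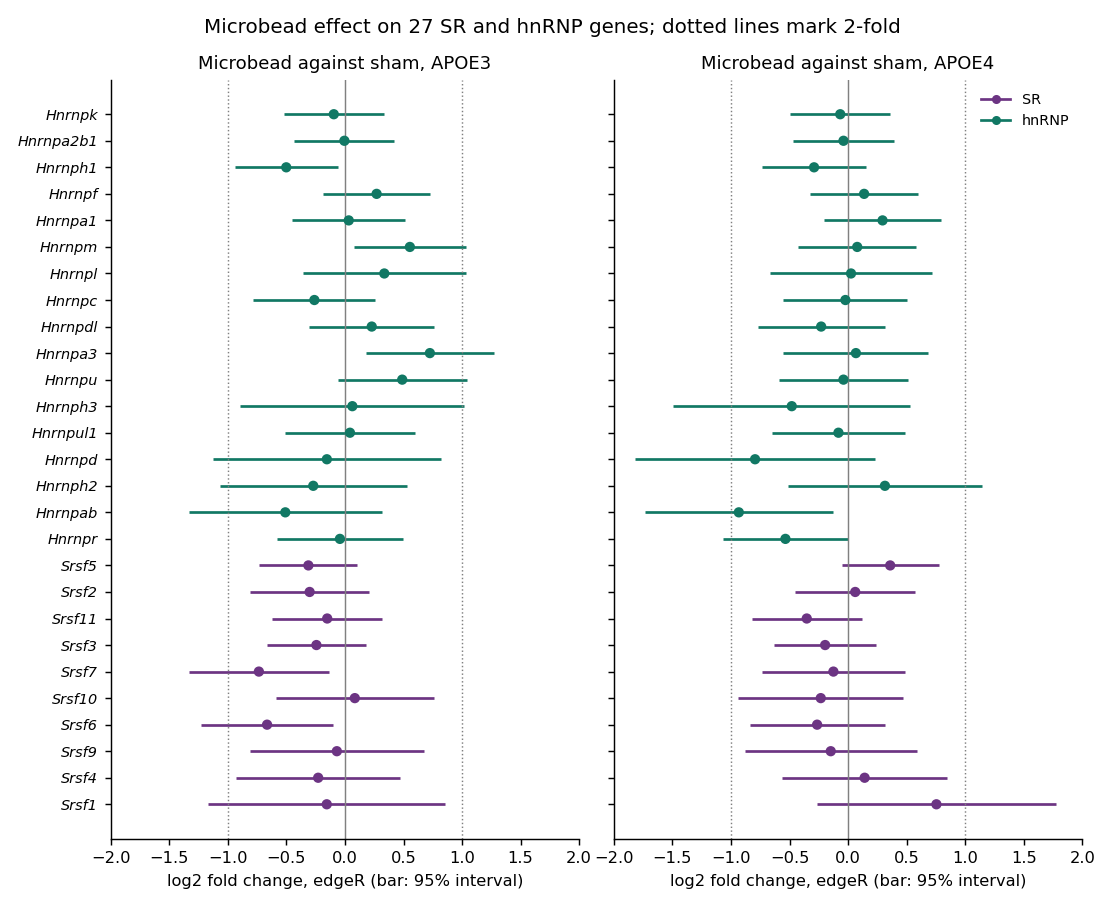
Log2 fold change of each of the 27 tested members for microbead against sham in APOE3 (left) and APOE4 (right), with 95% intervals; dotted lines mark a 2-fold change. In APOE3 9 of 10 SR genes lie left of 0, and the intervals stay inside the dotted lines for 16 members in APOE3 and 21 in APOE4.

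The 95% interval of the log2 fold change lay within a 2-fold change in either direction for 16 of 27 members in APOE3 and for 21 of 27 in APOE4. For Hnrnpk it ran from -0.52 to 0.33 in APOE3 and from -0.50 to 0.36 in APOE4, and for Hnrnpa2b1 from -0.43 to 0.42 and from -0.47 to 0.39. At the low end, the interval of Srsf1 ran from -0.27 to 1.77 in APOE4, where its libraries were at 12.6, 9.93, 10.7 and 11.3 CPM after sham and 14.1, 28.2 and 13.8 CPM after microbeads. Srsf1 was the fourth member whose groups did not overlap in APOE4, and the one that was higher after microbeads (log2 fold change 0.75 ± 0.50, edgeR adjusted p = 0.897).

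The interaction asks whether the microbead effect differed between the genotypes. None of the 27 members was called, against 0.092% of all genes, and 1 had an unadjusted p under 0.05, against 8.19% of all genes. That member was Srsf5, with an APOE4 effect larger than the APOE3 effect by 0.67 ± 0.29 on the log2 scale (edgeR adjusted p = 0.518). It was 0.42 with library totals and 0.33 with log2(TPM + 1). The next smallest p-values belonged to Hnrnpa3 at -0.66 ± 0.41, Srsf7 at 0.61 ± 0.42 and Hnrnpm at -0.48 ± 0.34 (edgeR adjusted p = 0.742, 0.8001 and 0.804). Without APOE3 microbead 1 these 3 were -0.40, 0.29 and -0.44, and Srsf7 was at 1.01 without APOE3 microbead 2. The interaction was positive for 7 of 10 SR genes, with a median of 0.37, and negative for 12 of 17 hnRNP genes, with a median of -0.31. Neither direction held under every setting: with log2(TPM + 1) 4 of 10 SR genes were positive with a median of -0.20, and without APOE3 microbead 1 and 2 (1 library left in the group) the hnRNP median was 0.05.

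APOE4 was compared with APOE3 within each treatment, with the sham and microbead libraries above used again. In sham, none of the 27 members was called, against 0.0131% of all genes, none had an unadjusted p under 0.05, against 4.4% of all genes, and DESeq2 called none. 2 members did not overlap between genotypes (7.41%, against 3.52% of all genes). These were Hnrnpab, at 18.9, 17.6, 20.3 and 20.4 CPM in APOE3 and higher in all 4 APOE4 libraries (log2 fold change 0.62 ± 0.35, edgeR adjusted p = 0.962), and Srsf7, at 41.3, 62.9, 62.2 and 56.6 CPM in APOE4 and lower there (-0.42 ± 0.27, edgeR adjusted p = 0.962). Hnrnpa1, a silencer-binding hnRNP that shuttles between nucleus and cytoplasm, was at 92.8, 136.9, 105.6 and 130.7 CPM in APOE3 sham and 100.5, 82.8, 83.6 and 75.4 CPM in APOE4 sham. The groups overlapped, and the log2 fold change was -0.45 ± 0.22 (edgeR adjusted p = 0.962).

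After microbeads, none of the 27 members was called by edgeR, against 0.578% of all genes, and 2 had an unadjusted p under 0.05, against 9.8% of all genes. 4 members did not overlap between genotypes (14.8%), where 14.5% of all genes did not. Hnrnpa3 had the smallest p of any member in any comparison. It was at 40.4, 36.5 and 48.4 CPM in APOE4 microbead, all below the 128.9, 80.1 and 76.4 CPM of APOE3 microbead, with a log2 fold change of -1.16 ± 0.30 (edgeR adjusted p = 0.0786). DESeq2 called it (adjusted p = 0.0335), and so did edgeR without APOE3 microbead 3 (adjusted p = 0.0389), whereas without APOE3 microbead 1 the log2 fold change was -0.92 (adjusted p = 0.391) and without APOE3 microbead 1 and 2 it was -0.87, with 1 library left in that group and no p given. DESeq2 adjusted over 2150 genes in this comparison after its own filtering, and edgeR over 7609. In sham, Hnrnpa3 was at 21.5, 46.3, 48.0 and 43.4 CPM in APOE4, overlapping APOE3 sham, with a log2 fold change of -0.51 ± 0.27 (edgeR adjusted p = 0.962), or -0.30 without APOE4 sham 1 (adjusted p = 0.985). The other members without overlap after microbeads were Srsf5, higher in APOE4 (0.47 ± 0.22, edgeR adjusted p = 0.461), Hnrnpm, lower in APOE4 (-0.51 ± 0.25, edgeR adjusted p = 0.514), and Hnrnpdl, lower in APOE4 (-0.24 ± 0.28, edgeR adjusted p = 0.903).

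Reads of each gene were then divided by the annotated class of the transcript they were assigned to: protein coding, retained intron, NMD, or processed transcript (spliced, with no open reading frame annotated). 21 members with at least 20 reads in every group and a retained-intron or NMD transcript in the annotation were used, 9 SR genes and 12 hnRNP genes. Over all libraries, 38.3% of the reads of these SR genes lay on protein-coding transcripts, 47.7% on retained-intron transcripts and 10.4% on NMD transcripts. For the hnRNP genes the shares were 76.5%, 15.4% and 6.47%. Other protein-coding genes outside the satellites stood at 79.7%, 12.6% and 3.52%. These were not limited by reads or to genes with a retained-intron or NMD transcript in the annotation, so the sets are unlike. Per gene, the median retained-intron share was 25.5% over the 10 tested SR genes, 0.687% over the 17 tested hnRNP genes and 4.8% over 7313 other tested genes. Genes without a retained-intron transcript in the annotation can only be at 0 and were kept in these medians. Among them were Srsf9, Srsf10, Hnrnpab, Hnrnpf, Hnrnph1 and Hnrnph2. No test was made of the differences in share, since genes are not replicates and annotated transcripts differ in number between genes. The assignment also depends on length: counted per transcript length, the retained-intron share was 41.6% for the SR genes and 37.9% for the hnRNP genes, and the protein-coding share 34.8% and 54.1%. Per length, most of the distance between the families on retained introns was gone.

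**Figure D4:**
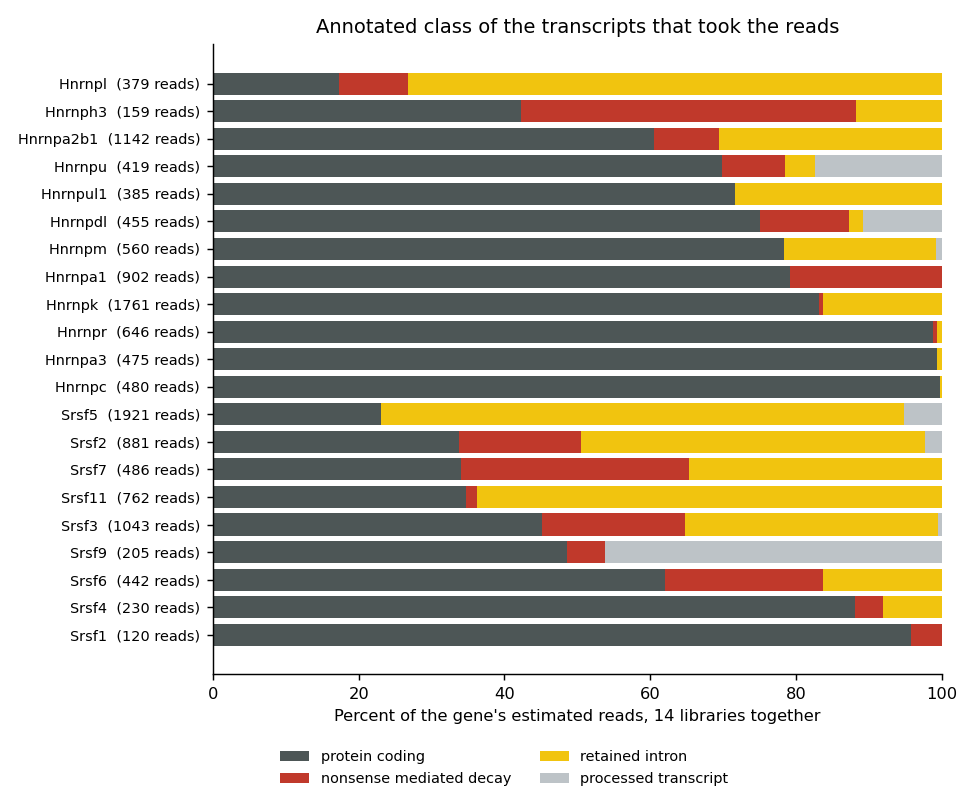
Percent of each gene's estimated reads, 14 libraries together, on transcripts of each annotated class, for 21 members. Retained-intron transcripts take more than any other class in Hnrnpl, Srsf5, Srsf11, Srsf2 and, at 34.7% against 34.1% protein coding, Srsf7, while Hnrnpc, Hnrnpa3 and Hnrnpr are almost wholly protein coding.

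Srsf5 had 71.8% of its 1921 reads on retained-intron transcripts, a share exceeded by 3.60% of other tested genes. The transcript whose intron is shown above took 1087 of these reads and was present in all 14 libraries. Srsf11, an SR-related factor also called p54, had 63.8% on retained-intron transcripts, and Srsf2 47.2%. Counted per transcript length, the retained-intron share was 55.6% for Srsf5, 79.3% for Srsf11 and 29.9% for Srsf2. In Srsf2 it was then below the NMD share of 38.1%. Srsf3, the smallest SR protein, had 34.6% of its reads on retained-intron and 19.7% on NMD transcripts. All of that NMD share was the transcript shown above, with 205 reads in 11 of 14 libraries. Srsf7 had 34.7% and 31.2%, with 151.7 reads on the NMD transcript shown, in 13 libraries. Srsf6 had 16.3% and 21.6%, with 95.7 reads on the NMD transcript shown, in 10 libraries. Srsf1 and Srsf4 had 95.7% and 88.1% of reads on protein-coding transcripts. Counted per transcript length these shares were 69.0% and 87.0%, with 31.0% of Srsf1 on NMD transcripts. Srsf9 had 48.6% on protein-coding, 46.1% on processed and 5.23% on NMD transcripts. Srsf10, not among the 9 genes, had 74.99% on protein-coding and 25.01% on processed transcripts. Neither has a retained-intron transcript in the annotation, so no reads could be assigned to that class.

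Among hnRNP genes, Hnrnpl, a binder of CA repeats that is known to autoregulate by a poison exon, had 73.2% of its 379 reads on retained-intron transcripts and 17.3% on protein-coding ones. Hnrnpa2b1, Hnrnpul1 and Hnrnpm had 30.6%, 28.4% and 20.8% on retained-intron transcripts. Counted per transcript length, Hnrnpa2b1 had 56.1% on retained-intron and 38.8% on protein-coding transcripts. The highest NMD share was that of Hnrnph3, with 45.9% of its 159 reads on NMD and 42.3% on protein-coding transcripts. Its NMD share ran from 0% to 100% between libraries. Hnrnpa1 had 20.8% on NMD transcripts, with 117 and 70.6 reads on its main NMD transcripts. Hnrnpc, Hnrnpa3 and Hnrnpr had 99.8%, 99.4% and 98.8% of reads on protein-coding transcripts. Hnrnph1, which has no retained-intron or NMD transcript in the annotation, had 76.8% of its 806 reads on processed transcripts.

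By group, the retained-intron share of the SR genes was 44.8% ± 4.86 in APOE3 sham (SD, n = 4), 43.7% ± 2.77 in APOE3 microbead (n = 3), 47.4% ± 2.82 in APOE4 sham (n = 4) and 58.0% ± 7.99 in APOE4 microbead (n = 3). The APOE4 microbead libraries were at 66.3%, 50.3% and 57.4%, and the APOE4 sham libraries at 44.7%, 49.7%, 50.03% and 45.3%, so the groups did not overlap but came within 1 percentage point of each other. No test was run: with 3 against 4 libraries the smallest two-sided exact permutation p is 0.0571. In APOE3 the libraries overlapped, at 50.6%, 46.9%, 41.3% and 40.3% after sham and 42.9%, 41.4% and 46.8% after microbeads. Without Srsf5 the shares were 38.4%, 31.2%, 33.9% and 42.7% in the same order of groups, with overlap between APOE4 sham (30.7% to 39.1%) and APOE4 microbead (36.6% to 50.6%). In other protein-coding genes the share was 12.8%, 12.2%, 12.9% and 12.9%. In the hnRNP genes it was 16.2% ± 1.77, 16.3% ± 5.14, 14.7% ± 2.65 and 16.3% ± 4.51, with overlap throughout. The NMD share of the SR genes was 10.8% ± 7.17, 10.9% ± 3.24, 12.6% ± 1.43 and 6.08% ± 3.28, and APOE4 microbead, at 2.30% to 8.21%, lay below APOE4 sham, at 10.9% to 14.1%. In other protein-coding genes the NMD share was 3.53%, 3.57%, 3.52% and 3.58%. Single NMD transcripts took uneven shares of their gene's reads in APOE4 microbead 1, 2 and 3. The shares were 20.9%, 0% and 0% in Srsf3 and 0%, 28.6% and 0% in Srsf2. They were 0%, 6.66% and 8.25% in Srsf6 and 69.8%, 41.1% and 13.3% in Srsf7. Counted per transcript length, with the libraries of a group pooled, the retained-intron share of the SR genes was 39.5%, 37.6%, 41.8% and 49.2%.

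**Figure D5:**
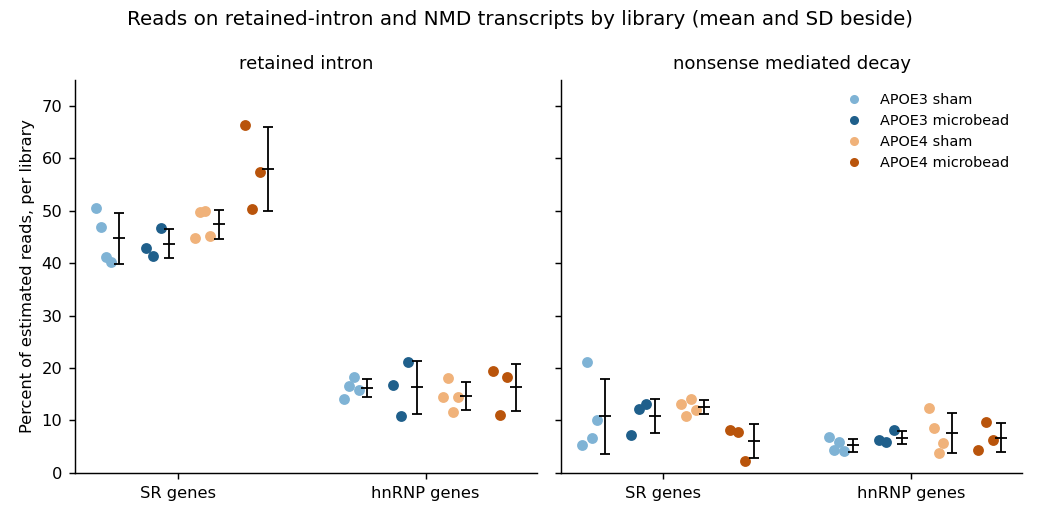
Percent of estimated reads on retained-intron (left) and NMD (right) transcripts in each library (points, with mean and SD beside), for 9 SR genes and 12 hnRNP genes. The SR retained-intron share is 50.3% to 66.3% in APOE4 microbead and 40.3% to 50.6% in the other libraries, and every SR value there exceeds every hnRNP value. The NMD shares of the families overlap.

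Single transcripts rested on few reads and moved in large steps between libraries. The retained-intron share of Srsf5 was 75.3%, 80.3%, 43.1% and 45.5% in APOE3 sham, 86.0%, 63.4% and 69.5% in APOE3 microbead, 83.8%, 76.4%, 82.9% and 77.9% in APOE4 sham and 94.6%, 73.6% and 85.2% in APOE4 microbead. APOE3 sham 3 and 4 were the low libraries, and they held the most reads of 1 coding Srsf5 transcript, which was at 0 in 9 of the 14 libraries. 4 coding transcripts of Hnrnpk had 335, 253, 303 and 355 reads in all but were at 0 in 9, 8, 9 and 7 libraries. Reads of such near-identical transcripts can be assigned all or nothing, and shares of single transcripts are uncertain for that reason.

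Genes that work with these families gave no calls either. Of 28 regulators and partners of SR proteins, all tested, none passed in any of the 5 comparisons, where 5.2% of all genes were called in APOE3 and 0.0131% to 0.578% in the others. Their median log2 fold change for microbead against sham was -0.25 in APOE3 and -0.08 in APOE4, with -0.02 and -0.00 over all genes. Srpk1, a kinase that phosphorylates SR proteins for nuclear import, was at 55.8 ± 12.5 CPM in APOE4 sham and 31.1 ± 1.52 in APOE4 microbead (log2 fold change -0.84 ± 0.33, edgeR adjusted p = 0.549). Arglu1, a partner of splicing and transcription factors, was at 81.7 ± 14.4 and 56.8 ± 8.10 CPM in APOE3 sham and microbead (-0.50 ± 0.24, edgeR adjusted p = 0.327) and at 92.4 ± 10.2 and 57.8 ± 9.83 CPM in APOE4 (-0.68 ± 0.24, edgeR adjusted p = 0.437). Clk3, a kinase of SR proteins in the nucleus, was at 32.2 ± 16.3 CPM in APOE3 microbead and 59.7 ± 18.4 in APOE4 microbead (0.81 ± 0.34, edgeR adjusted p = 0.406).

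Of 48 other splicing regulators of RNA-binding families, 34 were tested and none was called in any comparison. Mbnl1, a muscleblind protein, was nearest, at 239.6 ± 46.3 CPM in APOE3 sham and 153 ± 39.6 in APOE3 microbead (log2 fold change -0.64 ± 0.21, edgeR adjusted p = 0.0872). Of 55 genes of the core spliceosome 48 were tested, and of 14 genes of NMD 12, again with no call in any comparison. Their medians for microbead against sham were 0.02 and 0.09 in APOE3 and -0.04 and -0.04 in APOE4. At an unadjusted p under 0.05 the 4 lists held 1, 3, 2 and 0 genes in APOE3 and 2, 2, 0 and 0 in APOE4, in the order given, where 14.7% and 6.49% of all genes did.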

How the data were processed

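RNA of sorted retinal microglia was read as 14 libraries. Per the submitters' processing notes, the tools were Salmon 1.4.0, R 4.0.3 and DESeq2 1.30.1 and the build mm10, with no roles given. The authors deposited estimated counts per transcript for each library and TPM per gene for the series. Recomputing TPM from a library's counts gave back its deposited column within 1% for 99.2% to 99.4% of genes.

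GENCODE M21 (GRCm38) gave a gene to 116023 of 116945 transcripts, 385 of them by identifier without version. Estimated counts were summed per gene and rounded. Genes were kept with filterByExpr (minimum count 10, minimum total 15), leaving 7609 of 28203 with a read, and 4 group means over all 14 libraries were fitted with edgeR 4.0.16 (R 4.3.3; TMM scaling, robust quasi-likelihood test, two-sided). Adjusted p-values of edgeR are Benjamini-Hochberg over all genes tested, standard errors come from the quasi-likelihood F statistic, and a call needs an adjusted p under 0.05. The common biological coefficient of variation was 0.275. No library was a copy of another of its group (lowest chi-square per degree of freedom between counts 2.19).

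The 31 members and the lists of other splicing genes were chosen with earlier results of these data known. Values are printed by library for members called in any comparison, for up to 4 members with the smallest unadjusted p in each comparison and for the 5 with the highest mean TPM; Hnrnpdl, the SR transcripts shown and the class shares of single genes were singled out after their values were seen. For other lists, up to 3 genes with the smallest unadjusted p per comparison could be named. Counts without strand information cannot separate overlapping genes, and copies of these genes elsewhere in the genome can take reads; the 3 pseudogene rows left out were above 0 in at most 1 library each. Alternatives used DESeq2 1.42.0, limma 3.58.1, other scalings and filters, length offsets, the replicate number as a block, log2(TPM + 1) with genes at 1 TPM or more in 3 libraries, and libraries left out. Estimates carry no counting intervals here, since reads without molecular identifiers are not independent molecules. Same-numbered libraries did not deviate together: of 19 pairs, 0 correlated above 0.1.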

Additional observations from a re-analysis of the deposited data

Results flagged for a closer look

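In the groups of 4 libraries, 54 sets of member values were examined for a library that stands apart from the other 3 (gap to the nearest over the whole range, Dixon's 95% critical value). 6 were found, where chance alone gives about 1 in 20, or 2.7. Hnrnph3 was at 36.9 CPM in APOE3 sham 2, with the other APOE3 sham libraries between 12.2 and 15.6. Hnrnpk was at 180.8 CPM in APOE3 sham 2, with the others between 229.1 and 238.8. Srsf3 was at 112.4 CPM in the same library, with the others between 146.3 and 152.4. Srsf1 was at 27.5 CPM in APOE3 sham 1, with the others between 10.2 and 12.3. Srsf2 was at 140.5 CPM in APOE4 sham 3, with the others between 86.1 and 88.6, and Hnrnpr was at 124.5 CPM in APOE4 sham 4, with the others between 86.1 and 89.7. No library held more than 3 of the 6.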

How the results depend on the processing

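Of 26 alternative settings, 25 gave the interaction, since a fit with only the libraries compared is there the fit already reported. The count of members called stayed at 0 in each of the 5 comparisons except for APOE4 against APOE3 after microbeads, where DESeq2 called 1 (Hnrnpa3) and leaving out 1 library gave 0 to 1 (1 without APOE3 microbead 3). The replicate block called 0 members in every comparison, as the main fit did. Over all genes it lowered the calls from 396 to 291 in APOE3 and from 17 to 5 in APOE4. For the interaction they fell from 7 to 3, between genotypes in sham from 1 to 0, and after microbeads from 44 to 33. Same-numbered libraries correlated between -0.14 and 0.0985 and 4 of 14 libraries correlated best with their own number, so the numbers were taken as names only. Over all genes, calls numbered 396 in APOE3 (37 without APOE3 microbead 1 and 2, up to 476 without APOE3 microbead 3), 17 in APOE4 (2 without APOE4 microbead 2 or 3 or APOE4 sham 3 or 4, up to 53 with no filter), 7 for the interaction (0 with length offsets or without APOE4 sham 1, APOE4 sham 2 or APOE4 microbead 1, up to 58 with DESeq2), 1 between genotypes in sham (0 with library totals and in most other settings, up to 12 with no filter) and 44 after microbeads (2 without APOE3 microbead 1 and 2, up to 121 without APOE3 microbead 3). Without APOE3 microbead 1 and 2 that group holds 1 library, which the fit assumes to vary like the other groups, so a lower count there says little about stability.

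The median log2 fold change over the members moved by more than the spread between libraries of a group (SD 0.105) in these cases. With library totals it was -0.30 in APOE4, -0.32 for the interaction and 0.12 between genotypes in sham, where the median over all genes moved to -0.23, -0.21 and 0.16. With log2(TPM + 1) it was -0.45, -0.39 and 0.24, with -0.26, -0.27 and 0.16 over all genes, and -0.17 between genotypes after microbeads, with -0.12 over all genes. Without both APOE3 microbead 1 and 2 it was -0.25 in APOE3, 0.16 for the interaction and 0.090 between genotypes after microbeads. With 1 library left out it ranged from -0.20 to -0.0049 in APOE3, -0.11 to -0.03 in APOE4, -0.13 to 0.088 for the interaction, -0.16 to -0.02 between genotypes in sham and -0.14 to 0.093 after microbeads. The values -0.20, 0.088 and 0.093 came without APOE3 microbead 2, -0.0049 without APOE3 sham 2 and -0.16 without APOE4 sham 3. Srsf5 in APOE4 turned to -0.010 with log2(TPM + 1). Shares of reads on protein-coding transcripts per transcript length, an alternative chosen after seeing the data, were 46.6%, 49.0%, 44.2% and 42.8% in APOE3 sham, APOE3 microbead, APOE4 sham and APOE4 microbead, against 60.4%, 62.5%, 58.8% and 55.1% of reads. The values per length pool the libraries of a group, while the shares of reads are means over libraries. The cause of these shifts was not tested. Depth limits the results most for Srsf1, Hnrnpd, Hnrnph3 and Hnrnpab, with 116.7 to 169.4 reads over 14 libraries. Protein features of the members were planned and not run, as no protein table was used here.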
